A study of Homo sapiens with 6 samples.

Results

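The 10 genes described here belong to myostatin, activin and TGF-beta signaling and were followed in RH36 cells after transfection with the precursor of miR-27a. The genes were the ligands MSTN (myostatin) and INHBA (the activin A subunit), the antagonist FST (follistatin), the receptors ACVR2A, ACVR2B, TGFBR1 and TGFBR2, and the signal transducers SMAD2, SMAD3 and SMAD4. Every probe whose gene name in the array files was one of these was taken, with GDF8 read as the older name of MSTN. This gave 10 genes and 17 probes, out of 16612 named genes and 36469 probes kept for testing and 41000 probes on the array. All 17 probes passed the filter on spots that were not found, and on each of the 6 arrays all 17 were well above background. The same held for 27057 of the 36469 probes kept.

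RH36 is an embryonal rhabdomyosarcoma cell line without the PAX3/FOXO1 translocation, and rhabdomyosarcoma is a tumor with features of immature skeletal muscle. Total RNA was measured on 1-colour Agilent whole-genome arrays after transient transfection with pre-miR-27a (n = 3 arrays) or with the negative pre-control, a precursor with no intended target (n = 3 arrays). The labels give 10 nM of precursor for both groups, and 48 hours after transfection for the pre-miR-27a arrays. The methods of the study give another dose and time, and it was not settled which of them hold for these arrays.

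Myostatin, activins and TGF-betas are secreted dimers. Myostatin and activin bind the type II receptors ACVR2A and ACVR2B, TGF-beta binds TGFBR2, and the type II receptor then activates a type I receptor such as TGFBR1, which phosphorylates SMAD2 and SMAD3. These join SMAD4 and enter the nucleus to change transcription. In skeletal muscle, myostatin restrains growth and the pathway holds back differentiation of myoblasts, and follistatin binds and blocks myostatin and activin.

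The transfected precursor is processed to the mature miRNA, whose bases 2 to 8, the seed, pair with target mRNAs. The mature sequences of miR-27a-3p and of its paralog miR-27b-3p are shown here because transcripts targeted by this arm of the precursor pair with its seed, in capitals, which both share. They are from RefSeq (GRCh38.p14), where miR-27a-3p lies at chr19:13836447-13836467 on the minus strand and miR-27b-3p at chr9:95085505-95085525 on the plus strand.
hsa-miR-27a-3p: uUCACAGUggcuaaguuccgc
hsa-miR-27b-3p: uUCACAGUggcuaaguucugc
A transcript pairs with this seed over its whole length where it holds ACTGTGA. Transcript sequences of the 10 genes were not analysed here, so whether they hold this match is not given.

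Between 69.9% and 73.9% of spots were well above background on pre-control arrays, and between 74.1% and 78.0% on pre-miR-27a arrays. Each group was hybridised on its own slide, and the effects of slide and of transfection cannot be told apart in any difference given here. Markers of cell type were looked up: 8 of 8 measured muscle lineage genes, MYOD1, MYOG and DES (desmin) among them, gave signals well above background on every one of the 6 arrays. Another listed gene, MYF5, was not kept, since its probe was not found on more than 1 array. Over all genes, 13255 of 16612 were well above background on all 6 arrays, so the muscle count alone does not set these cells apart. EPCAM, CDH1, PTPRC, PECAM1 and KDR, markers of epithelial, leukocyte and endothelial cells, were well above background on 0 arrays. Of the leukocyte list, CD3E and ITGAM reached this on all 6 arrays. Of the epithelial and endothelial lists, KRT19 was well above background on 5 arrays and CDH5 on 3. Signals are given as quantile-normalized log2 values, in which 1 unit is a doubling, and can be compared between arrays for 1 probe but not between probes.

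All 10 genes were detected in RH36 cells, and 0 of 10 differed between pre-miR-27a and pre-control arrays at an adjusted p under 0.05 in limma, with each gene read by its brightest probe. Over all genes read in this way, 6.65% passed that threshold, 671 of them lower and 434 higher. At the level of probes, 0 of 17 passed, against 7.83% of all probes. At an unadjusted p under 0.05 the count was 0 of 10 genes, against 22.9% of all genes, and 3 of 17 probes, or 17.6% against 24.8% of all probes. The median log2 difference of the 10 genes was -0.04, with 6 lower and 4 higher, and that of all genes was also -0.04, with 56.6% lower. The arrays of the 2 groups did not overlap for 3 of the 17 probes, against 32.5% of all probes, and for 0 of the 10 brightest probes, against 31.1% of all genes. Arrays with the same replicate number deviated together, and when the replicate number was fitted as a block the count of called genes over the array rose to 13.5% of genes and 14.9% of probes, while the count for the 10 genes and the 17 probes stayed at 0. With 3 arrays a group these counts do not show that the genes did not respond, and the interval of each difference is given with its gene.

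**Figure D1:**
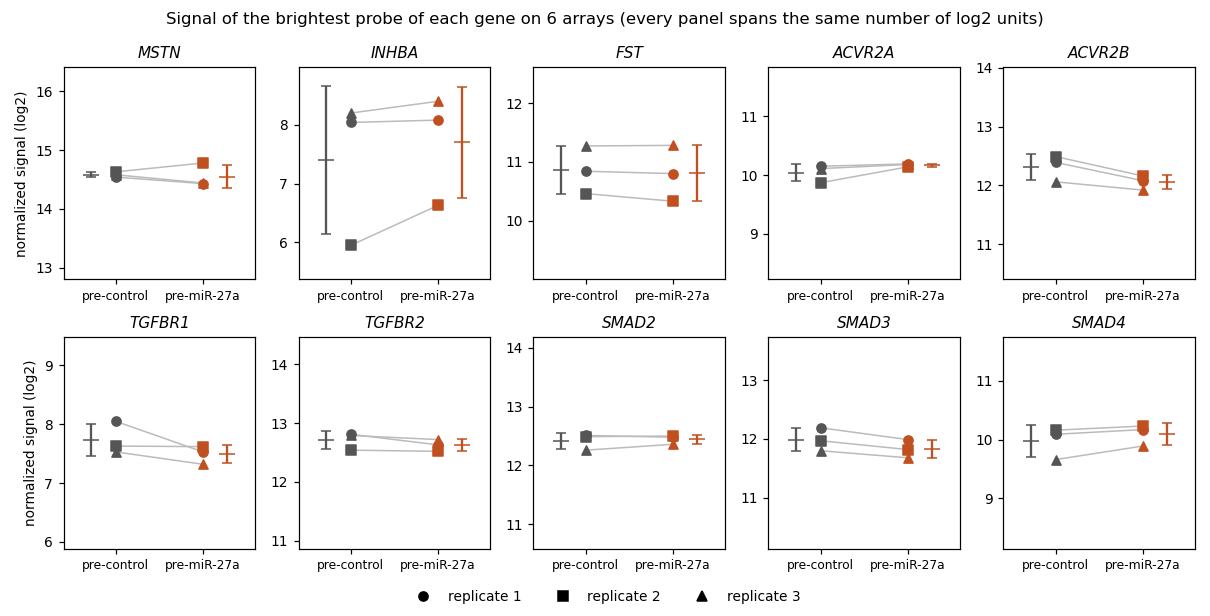
Normalized log2 signal (vertical axis) of the brightest probe of each of the 10 genes on the 3 pre-control arrays (grey) and the 3 pre-miR-27a arrays (orange), with grey lines joining arrays of the same replicate number and bars for mean ± SD. The groups overlap in all 10 panels, and INHBA stands out by its replicate 2, at 5.95 and 6.63, while its other 4 arrays lie between 8.04 and 8.40.

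The ligand myostatin was well above background on every array, and its levels on pre-miR-27a arrays lay around those on pre-control arrays. The MSTN probe (NM_005259, hg18 chr2:190628752-190628811) read 14.54, 14.63 and 14.58 on pre-control arrays 1, 2 and 3 and 14.43, 14.78 and 14.44 on pre-miR-27a arrays 1, 2 and 3. The pre-control arrays lay within the spread of the pre-miR-27a arrays, of which replicate 2 was the highest and the other two the lowest of all 6. The difference was -0.03 (SE 0.12, 95% interval -0.33 to 0.26, limma adjusted p = 0.901), or 0.977-fold with an interval of 0.797 to 1.20. A fall of MSTN mRNA by more than 0.33 on the log2 scale therefore lies outside that interval.

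INHBA, which encodes the subunit of activin A, was the most variable of the 10 genes. Its probe (NM_002192, hg18 chr7:41695771-41695830) read 8.04, 5.95 and 8.20 on the pre-control arrays and 8.08, 6.63 and 8.40 on the pre-miR-27a arrays. Replicate 2 was far below replicates 1 and 3 in both groups. As processed intensity before normalization between arrays, the pair labelled replicate 2 gave 57.1 and 91.9 against 270 to 319 on the other arrays. The mean over both groups ran from 6.29 in replicate 2 to 8.30 in replicate 3, a range of 2.01 or 4.02-fold, and 0.815% of the 14962 genes with values on all 6 arrays had a range at least as large. Between the groups the difference was 0.30 (SE 0.76, 95% interval -1.59 to 2.20, limma adjusted p = 0.851), and it was -0.42 without pre-control replicate 2 and -0.04 without pre-miR-27a replicate 3. With the replicate block the SE fell to 0.15 and the adjusted p was 0.245.

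FST encodes follistatin, the secreted antagonist of activin and myostatin. Its probe (NM_013409, hg18 chr5:52816594-52816653) read 10.84, 10.46 and 11.27 on the pre-control arrays and 10.80, 10.33 and 11.28 on the pre-miR-27a arrays. The order of the replicates was the same in both groups, with replicate 2 lowest and replicate 3 highest, and the replicate means spanned 0.88, a range reached by 7.57% of genes. The difference between groups was -0.05 (SE 0.31, 95% interval -0.82 to 0.71, limma adjusted p = 0.941). It was 0.15 without pre-control replicate 3 and 0.18 without pre-miR-27a replicate 2. With the replicate block its SE was 0.06 and its adjusted p 0.561.

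**Figure D2:**
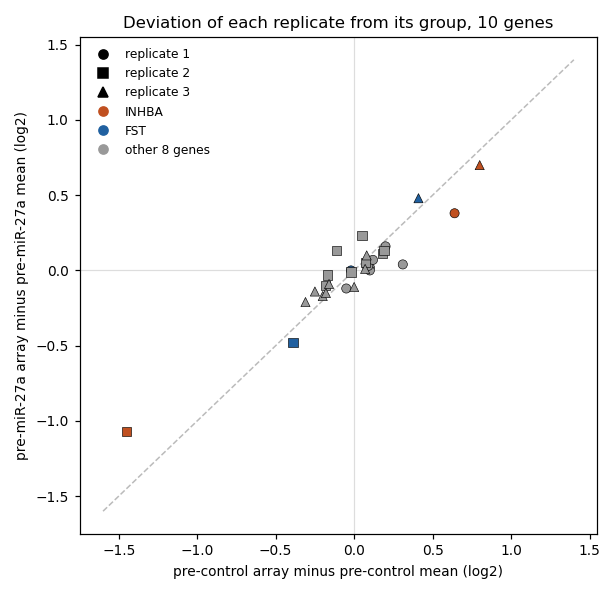
Deviation of each array from the mean of its group (log2) for the brightest probes of the 10 genes, with pre-control arrays on the horizontal axis and the pre-miR-27a array of the same replicate number on the vertical axis; the dashed line marks equal deviations. INHBA (orange) and FST (blue) lie furthest out, with replicate 2 at -1.45 and -1.07 for INHBA and at -0.39 and -0.48 for FST.

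ACVR2A, a type II receptor shared by activin and myostatin, read 10.15, 9.87 and 10.11 on the pre-control arrays and 10.19, 10.14 and 10.18 on the pre-miR-27a arrays (NM_001616, hg18 chr2:148401393-148401452). Pre-control replicate 2 was the lowest of the 6 and the groups overlapped. The difference was 0.12 (SE 0.10, 95% interval -0.12 to 0.37, limma adjusted p = 0.504).

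ACVR2B, the other type II receptor and the main one for myostatin, was read by 3 probes. Their differences did not all have the same sign. The brightest probe (hg18 chr3:38499784-38499843) read 12.39, 12.49 and 12.06 on the pre-control arrays and 12.08, 12.16 and 11.92 on the pre-miR-27a arrays. The groups overlapped there, with a difference of -0.26 (SE 0.14, 95% interval -0.61 to 0.09, limma adjusted p = 0.324). The probe furthest along the gene (chr3:38509311-38509370) read 11.24, 11.30 and 11.12 on the pre-control arrays and 11.46, 11.67 and 11.45 on the pre-miR-27a arrays. Every pre-miR-27a array was above every pre-control array at that probe, with a difference of 0.31 (SE 0.10, 95% interval 0.06 to 0.56, limma adjusted p = 0.136). The dimmest of the 3 (chr3:38496226-38496285) read 8.84, 9.01 and 8.49, then 8.71, 8.79 and 8.54. Its difference was -0.10 (SE 0.16, 95% interval -0.49 to 0.29, limma adjusted p = 0.761). The file gives all 3 probes the transcript NM_001106.

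The difference at the brightest ACVR2B probe minus that at the furthest one was -0.57, over 9527 bases. The signal of 1 probe minus that of the other did not overlap between groups, and the exact two-sided permutation test over arrays gave p = 0.1, the smallest that 3 against 3 arrays allow. Over the 11 pairs of probes compared within the 4 genes that have several, the Benjamini-Hochberg adjusted value was 0.275. The sign of the estimated difference varied with the ACVR2B probe read, but the interval at the brightest probe held 0. With 3 against 3 arrays this test could not bring that pair under 0.05, so a direction that depends on the probe was not established.

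TGFBR1, the type I receptor of TGF-beta, read 8.05, 7.63 and 7.53 on the pre-control arrays and 7.53, 7.62 and 7.32 on the pre-miR-27a arrays (NM_004612, hg18 chr9:100952018-100952077). Pre-control replicate 1 was the highest array and pre-miR-27a replicate 3 the lowest, with overlap between the groups. The difference was -0.25 (SE 0.17, 95% interval -0.66 to 0.16, limma adjusted p = 0.419), and -0.09 without pre-control replicate 1.

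TGFBR2, the type II receptor of TGF-beta, had 2 probes. The brightest (NM_001024847, hg18 chr3:30710167-30710226) read 12.81, 12.54 and 12.79 on the pre-control arrays and 12.63, 12.52 and 12.72 on the pre-miR-27a arrays, a difference of -0.09 (SE 0.11, 95% interval -0.36 to 0.18, limma adjusted p = 0.679). The other (NM_003242), whose position in the file spans 14197 bases (chr3:30690717-30704913), read 7.98, 7.60 and 7.68 on the pre-control arrays and 7.16, 7.35 and 7.35 on the pre-miR-27a arrays. All pre-miR-27a arrays were below all pre-control arrays at this dimmer probe. Its difference of -0.46 (SE 0.13, 95% interval -0.78 to -0.15, or 0.725-fold) was the largest fall among the 17 probes and had a limma adjusted p of 0.0895. That p was 0.111 with the replicate block and 0.0447 after normexp background correction, the 1 setting of those tried in which a probe of the 10 genes passed the threshold. The brighter probe's difference minus the dimmer one's was 0.38 (exact permutation p = 0.1, adjusted 0.275).

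SMAD2, phosphorylated by the activin, myostatin and TGF-beta receptors, was read by 4 probes on hg18 chromosome 18. The brightest (chr18:43622029-43622088) read 12.51, 12.49 and 12.26 on the pre-control arrays and 12.48, 12.50 and 12.36 on the pre-miR-27a arrays, a difference of 0.03 (SE 0.10, 95% interval -0.22 to 0.28, limma adjusted p = 0.898). The other probes gave differences of 0.04, 0.06 and 0.09, and the groups overlapped at all 4. At the brightest probe the interval ran from 0.857-fold to 1.21-fold.

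SMAD3, the partner of SMAD2, was lower on pre-miR-27a arrays at both of its probes, with neither past the threshold. The brightest (NM_005902, hg18 chr15:65274445-65274504) read 12.19, 11.97 and 11.80 on the pre-control arrays and 11.99, 11.82 and 11.68 on the pre-miR-27a arrays, a difference of -0.16 (SE 0.14, 95% interval -0.50 to 0.18, limma adjusted p = 0.538). The other (U68019, chr15:65270577-65270637) read 10.55, 10.57 and 10.53 on the pre-control arrays and 10.34, 10.22 and 10.28 on the pre-miR-27a arrays. The groups did not overlap there, and the pre-control arrays lay within 0.04 of each other. The difference was -0.27 (SE 0.07, 95% interval -0.45 to -0.09, 0.829-fold), with a limma adjusted p of 0.0873, and of 0.0673 with the replicate block.

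SMAD4, the common partner of the phosphorylated SMADs, read 10.09, 10.16 and 9.66 on the pre-control arrays and 10.17, 10.23 and 9.89 on the pre-miR-27a arrays (NM_005359, hg18 chr18:46859058-46859117). Replicate 3 was the lowest in each group and the groups overlapped. The difference was 0.13 (SE 0.17, 95% interval -0.30 to 0.55, limma adjusted p = 0.708). The brightest probes of SMAD2, SMAD3 and SMAD4 were each spotted 10 times on the array, and the SD over these spots within an array ran from 0.0237 to 0.0506 for SMAD2, from 0.0426 to 0.087 for SMAD3 and from 0.0544 to 0.133 for SMAD4. The SD of the spot means between arrays was 0.14, 0.19 and 0.27 for SMAD2, SMAD3 and SMAD4 in the pre-control group and 0.08, 0.15 and 0.18 in the pre-miR-27a group.

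**Figure D3:**
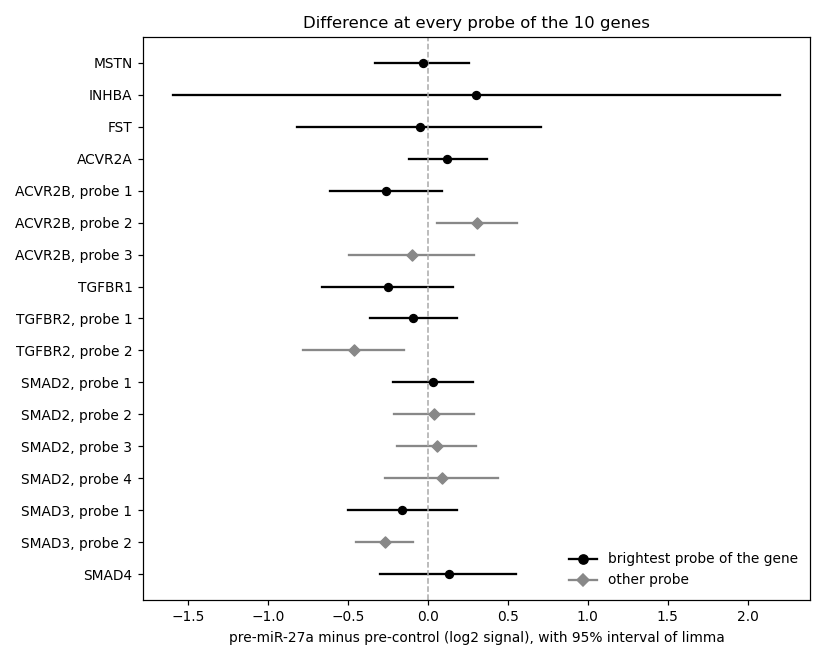
Difference of pre-miR-27a minus pre-control arrays (log2 signal, horizontal axis) at each of the 17 probes, with the 95% interval of limma; black circles are the brightest probe of a gene and grey diamonds its other probes, numbered by signal. Intervals of 3 probes leave out 0, namely ACVR2B probe 2 at 0.31, TGFBR2 probe 2 at -0.46 and SMAD3 probe 2 at -0.27, none of them with an adjusted p under 0.05.

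The wider pathway was read from 6 lists of 82 further genes, of which 80 were kept (LEFTY2 and BMP2 were not). Of these 80, 71 were well above background on all 6 arrays and 4 on 0 arrays. Over all 16612 genes these counts were 13255 and 1973. By the brightest probe, 3 of 80 genes passed the threshold, 3.75% against 6.65% of all genes: INHBC was lower, and BMPR2 and SMAD5 were higher. The median difference was -0.06, with 62.5% lower, against -0.04 and 56.6% lower over all genes. With the replicate block 14 passed, 10 lower and 4 higher, or 17.5% against 13.5% of all genes. The groups did not overlap for 20 of the 80, 25% against 31.1%. Of 40 other probes of these genes 7 were called, 5 higher and 2 lower, where 7.83% of all probes were called. They belong to 6 genes: BMPR2, INHBC, LTBP3, PPM1A, SKI and ZFYVE9.

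Among the other ligands, 9 of 11 were lower and 2 higher, or 81.8% lower against 56.6% of all genes, with a median of -0.26. NODAL, counted as lower, was well above background on 0 arrays. The 1 gene called made 9.09% of the list, against 6.65% of all genes. INHBC, the inhibin beta C subunit, read 8.44, 8.55 and 8.48 on the pre-control arrays and 7.86, 7.69 and 7.87 on the pre-miR-27a arrays. The groups were far apart relative to their spread, and the difference was -0.68 (SE 0.09, 0.622-fold, limma adjusted p = 0.0194), with -0.69 at its second probe (adjusted p = 0.0204). TGFB3 differed by -0.33 (adjusted p = 0.517) at its brightest probe and by 0.35 (0.496) at the other. INHBB, the activin B subunit, differed by 0.38 (adjusted p = 0.509) and LEFTY1, an antagonist of nodal, by 0.47 (0.517). With the block, TGFB3 and INHBB passed as well, at adjusted p = 0.0434 and 0.0366.

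Among antagonists and latency proteins, 0 of 12 were called, 9 were lower, or 75% against 56.6% of all genes, and the median was -0.22. LRRC32, which holds latent TGF-beta at the cell surface, differed by -0.86 (limma adjusted p = 0.593) and WFIKKN1, which binds myostatin, by -0.56 (0.546), each fitted with 1 array missing. With the replicate block these differences were -0.40 (0.102) and -0.24 (0.424). The proteoglycan gene DCN differed by 0.41 (0.605) and the protease gene HTRA1 by 0.14 (0.791). A dimmer probe of LTBP3 was called lower, at -0.76 (0.0351), while its brightest probe differed by -0.06 (0.863). With the block 1 gene of this list passed, FSTL3, a follistatin-like antagonist, at -0.49 and adjusted p = 0.0338; it was 0.173 without the block.

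Of 8 other receptors and coreceptors 0 were called, 3 were lower, and the median was 0.07. ACVR1B, the type I receptor used by activin and myostatin, read 9.44, 9.67 and 9.45 on the pre-control arrays and 9.17, 9.11 and 9.01 on the pre-miR-27a arrays. Its groups did not overlap, and the difference of -0.42 (SE 0.10) had a limma adjusted p of 0.0611, and of 0.0534 with the block. A second ACVR1B probe, well above background on 3 arrays, went the other way by 1.24 (adjusted p = 0.0965). The coreceptors ENG and TGFBR3 differed by -0.85 (adjusted p = 0.217, 1 array missing) and 0.58 (0.19), and ACVR1 by 0.06 (0.744). With the block ENG differed by -0.61 (0.143). The block added 1 call on this list, ACVRL1, at 0.87 (0.0367), with 1 array missing and a signal well above background on 2 arrays.

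Of 16 SMAD regulators 0 were called, 10 were lower and 6 higher, with a median of -0.05. LEMD3, an inner nuclear membrane protein that binds SMAD2 and SMAD3, differed by 0.44 (limma adjusted p = 0.0567). ZFYVE9, which anchors SMAD2 and SMAD3 at endosomes, differed by 0.29 (0.143) at its brightest probe, and a second probe rose by 0.65 (0.0243). Dimmer probes of SKI, a SMAD corepressor gene, and PPM1A, a phosphatase gene, were also called higher, SKI by 1.56 (0.0176) and PPM1A by 0.54 (0.0211) and 1.30 (0.0259), while their brightest probes differed by -0.13 (0.486) and -0.06 (0.743). The corepressor gene TGIF2 differed by -0.45 (0.088) and FKBP1A, whose product binds type I receptors, by -0.33 (0.0895). Both of the latter passed with the block, at 0.039 and 0.046. Other probes of FKBP1A differed by -0.05 (0.804), -0.27 (0.195) and -0.49 (0.0768), and with the block their adjusted p was 0.56, 0.114 and 0.0334.

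The transcripts that TGF-beta and SMAD3 are known to induce were split evenly. Of 16 such genes 8 were lower and 8 higher, 0 were called, and the median was -0.05. TAGLN and ACTA2, smooth muscle cytoskeletal genes, differed by -0.63 (limma adjusted p = 0.312) and -0.61 (0.349). COL1A2 differed by 0.23 (0.228), with -1.67 (0.607) at a second probe that was well above background on 1 array, and TGFBI by 0.22 (0.481). With the block 4 of the 16 were called, 25% against 13.5% of all genes, and all of them were lower, as were 1338 of the 2245 genes called in that fit: TAGLN (0.0334), ACTA2 (0.042), TIMP1 (0.0441) and COL1A1 (0.0466).

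Replicate 2 was also low for a target gene in the way seen for INHBA and FST. CTGF, picked after its values were seen, read 12.06, 10.15 and 12.96 on the pre-control arrays and 12.15, 10.23 and 12.99 on the pre-miR-27a arrays, a range of replicate means of 2.79. Replicate 2 was the lowest in both groups, and the difference between groups was 0.07 (limma adjusted p = 0.975). MYH3, the embryonic myosin heavy chain, had the same order, with replicate means of 15.21, 14.36 and 16.58, whereas those of MYOD1 were 12.01, 12.19 and 12.27. Other genes of the target list went otherwise: replicate 2 was the highest for BHLHE40 and IL11, at means of 8.63 and 5.95. In limma with the block, the replicate term had an adjusted p of 0.0816 for INHBA and 0.0808 for FST. It was 0.0721 for CTGF and for MYH3, and 0 of all 36469 probes passed 0.05 for this term. Whether the low values of replicate 2 share a cause was not tested.

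The BMP branch runs through its own receptors and SMADs, and both genes called higher by their brightest probe were on this list. Of 17 measured, 11 were lower and 6 higher, the median was -0.03, and 2 were called, 11.8% against 6.65% of all genes. The lower ones include BMP6, GREM1 and BMPR1B, which were well above background on 0 arrays. BMPR2, the type II BMP receptor, read 9.31, 9.42 and 9.75 on the pre-control arrays and 10.07, 10.21 and 10.39 on the pre-miR-27a arrays. Its difference was 0.73 (SE 0.15, 1.66-fold, limma adjusted p = 0.047), and 1.00 at a second probe (adjusted p = 0.0176). SMAD5, a transducer of BMP signals, read 9.49, 9.32 and 9.41 on the pre-control arrays and 10.36, 10.45 and 10.04 on the pre-miR-27a arrays. All pre-miR-27a arrays were above all pre-control arrays for both genes, and the SMAD5 difference was 0.87 (SE 0.13, 1.83-fold, limma adjusted p = 0.0244).

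The BMP antagonist NOG differed by -0.47 (limma adjusted p = 0.203) and the target gene ID4 by -0.45 (0.225, and 0.0427 with the block). Of the other BMP SMADs, picked after their values were seen, SMAD1 differed by 0.27 (0.082), with 0.09 (0.526) at a second probe, and SMAD9 by -0.02 (0.971). When each array was left out in turn, the difference of BMPR2 stayed between 0.64 and 0.85 and that of SMAD5 between 0.79 and 1, with adjusted p from 0.0564 to 0.134 and from 0.0546 to 0.0935. INHBC stayed between -0.72 and -0.62, with adjusted p from 0.0456 to 0.077, and was called in 1 of these 6 fits. In these fits the calls over all probes fell from 2856 to between 0 and 1276. A lost call therefore says little about these genes.

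**Figure D4:**
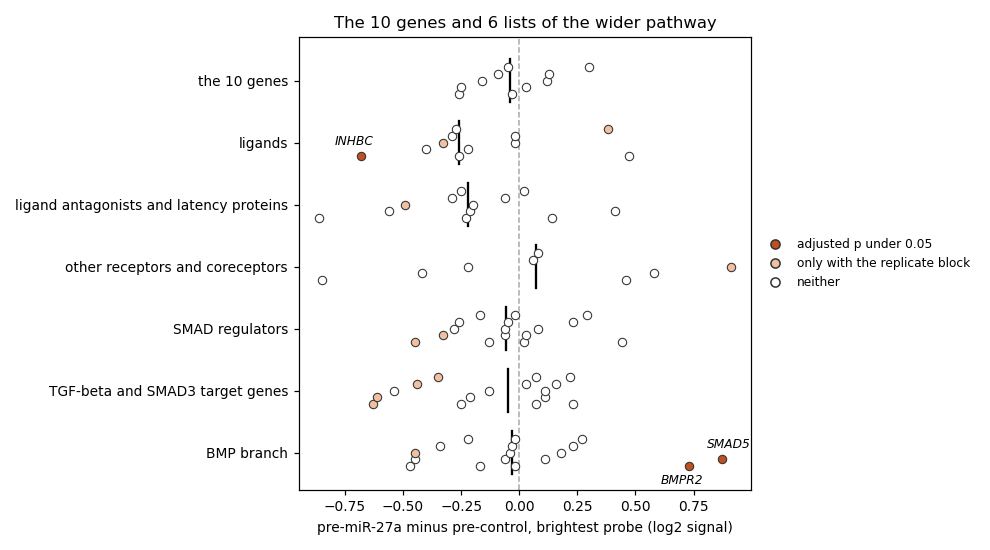
Difference of pre-miR-27a minus pre-control arrays (log2 signal, horizontal axis) at the brightest probe of the 10 genes and of the 80 genes of 6 pathway lists; each circle is a gene, the vertical bar is the median of a list, and fill marks an adjusted p under 0.05 in limma without or only with the replicate block. Filled in dark are INHBC at -0.68, BMPR2 at 0.73 and SMAD5 at 0.87, and none of the 10 genes.

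Of 8 muscle markers measured, 7 were lower and 1 higher by their brightest probes, or 87.5% lower against 56.6% of all genes. The median was -0.15 and 0 were called. MYOG, the myogenin gene, differed by -0.95 (limma adjusted p = 0.14) and MYOD1 by -0.45 (0.0787), and both passed with the block, at 0.0334 and 0.0363, as did CDH15, a cadherin gene of myoblasts, at -0.35 (0.0561, and 0.0457 with the block). That made 3 of 8 called with the block, 37.5% against 13.5% of all genes. On the leukocyte list CD3E was lower at its brightest probe, with a difference of -0.44 (0.0348), and differed by -0.05 (0.874) at another, and ITGAM differed by -0.41 (0.137, and 0.0402 with the block). The part of these markers in the differences given for the 10 genes was not tested, and in RNA of whole cultures fewer cells of a kind and less RNA per cell cannot be told apart.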

How the data were processed

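The authors deposited, for each of 6 arrays, the processed intensity of every spot from Feature Extraction 10.5.1.1, background-subtracted within the array, with the mean intensity, local background and quality flags. They also deposited a table of quantile-normalized log2 values, used as an alternative. Here, these processed intensities were put on a log2 scale and quantile normalized over non-control spots, values of spots not found were removed, replicate spots were averaged, and probes missing on more than 1 array were removed. The groups were compared over all probes with limma 3.58.1 (R 4.3.3), with Benjamini-Hochberg adjustment at 0.05. Its code was tested on simulated data. SAM, the test of the study, was not run, since 3 against 3 arrays allow few relabellings. A gene was read by its brightest probe, and current symbols came from a RefSeq table of GRCh38.p14 (25260 of 36469 probes). Positions of probes were copied from the files (hg18), and no annotation of exons or UTRs was used.

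The members and lists were chosen with earlier results of these data known. Genes named from a list were those called and, among probes well above background on all 6 arrays, the 2 largest falls and rises, by rule; genes called only with the block or at a dimmer probe, and those said to be picked later, were chosen after their values were seen. Replicate numbers come from the labels and are also the positions on the slide. Across 31717 probes, the deviations from the group mean of arrays with equal numbers correlated at 0.40, 0.46 and 0.41, against -0.27 to -0.12 for different numbers. Deviations cancel within a group, so the negative values follow in part from the positive ones. Paired cultures and a shared slide position cannot be told apart here, and the replicate block takes up either. Replicates are named biological by the labels. The number of arrays limits the precision. Alternatives were scaling to the 75th percentile, normexp correction (offset 50), no filter or a stricter filter on dim probes, the replicate block, the deposited log2 table, a variance trend with robust estimation, the mean over a gene's probes, and leaving out each array. Some listed genes are not reported here by name.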

Additional observations from a re-analysis of the deposited data

How the results depend on the processing

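The count of 0 called among the 10 genes held under all 14 alternatives, with a lowest adjusted p of 0.0842 (replicate block). In the fits without any call over the array, named below, that count could not have been otherwise. Array-wide calls were 2856 of 36469 probes and 5421 with the replicate block. They ran from 0 to 1276 when an array was left out: 1276 without pre-control replicate 1, 81 without pre-control replicate 3, and 0 without any of the other 4, where 7178 to 7686 probes had an unadjusted p under 0.05. Pathway genes called numbered 3 of 80, 5 of 80 after normexp correction and 5 of 75 with the filter on probes well above background. They numbered 6 of 80 with a variance trend and robust estimation, 14 of 80 with the replicate block, and 0 to 1 with an array left out. Calls over all genes moved as well, from 1105 of 16612 to 1464 after normexp correction and 1428 of 13801 with that filter. They were 1410 of 16612 with the trend and robust estimation and 2245 with the block. BMPR2 had an adjusted p of 0.0501 without the filter on dim probes. Scaling to the 75th percentile lowered the share of calls that were higher from 50.4% to 39.2% and the median of all genes from -0.04 to -0.11, and turned SMAD2 to -0.03. With an array left out, differences ran from -0.15 to 0.03 for MSTN, -0.42 to 0.84 for INHBA, -0.29 to 0.18 for FST, 0.04 to 0.18 for ACVR2A, -0.39 to -0.17 for ACVR2B, -0.35 to -0.09 for TGFBR1, -0.18 to -0.04 for TGFBR2, -0.25 to -0.06 for SMAD3, -0.05 to 0.07 for SMAD2 and -0.03 to 0.23 for SMAD4. Why these values moved was not tested. The replicate block changed no call among the 10 genes or their 17 probes.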
